A study of Mus musculus with 9 samples.

Results

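Pclaf, Ikbip and Atp7a are 3 genes for which the probe-sets of a single gene gave unequal differences between Tgif1 null and wild type mouse embryo fibroblasts (MEFs). A probe-set is a group of short oligonucleotides on the array that reads a stretch of a transcript, usually near its 3′ end, and a gene may have several that read different stretches. They are 3 of 18194 genes measured, and the array carried 8 probe-sets for them among 45101 in all, with 3 for Pclaf, 3 for Ikbip and 2 for Atp7a. The genes were chosen because their probe-sets differed from each other between Tgif1 null and wild type cells at passage 3. The differences between the null and either wild type group are therefore given for these genes as a description, with no test, and tests are confined to the passage comparison within the wild type.

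RNA was analysed from 3 groups of primary MEFs, with 3 arrays each. The groups were Tgif1 -/- MEFs at passage 3 (null P3), wild type MEFs at passage 5 (P5) and wild type MEFs at passage 3 (P3). All cells came from embryos aged 13.5 days on a mixed C57BL/6J x 129Sv/J background, received no treatment, and were passaged on a 3T3 schedule, in which a fixed number of cells is replated every few days. The null cells were isolated from embryos that lacked Tgif1 throughout, and the 3 arrays of a group came from independent cultures. The number and sex of the embryos behind each culture, and the strain alleles they carried, were not given in the sources used here. Nor was it given whether the P5 cultures descend from the P3 cultures, so passage and embryo source cannot be told apart. Because the background was mixed, genotype and any strain allele that travels with it cannot be told apart.

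Values are log2 signals after GCRMA, a normalization that corrects for the base content of each probe, and a difference of 1 is a doubling of signal. No array went below 2.23, and a signal above 4 was taken as above the floor. Array medians lay between 2.48 and 2.50, and replicate arrays correlated with r from 0.996 to 0.999. Tgif1, the targeted gene, read 2.48, 3.21 and 2.50 in null P3, 10.06, 10.07 and 10.18 in P5 and 9.82, 9.95 and 9.72 in P3, so every label matched its genotype. Signals of different probe-sets are not on a shared scale, so only their differences across arrays are compared. A lower signal in a culture can be fewer cells expressing a gene or less RNA per cell, and these cannot be told apart. Probe sequences were not used here, so a lower signal of 1 probe-set can also not be told apart from a sequence difference under its probes, which would lower the signal with no change in RNA.

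Pclaf encodes the PCNA-associated factor, a small protein that binds the sliding clamp PCNA at replication forks and is most abundant in cycling cells. Ikbip encodes an endoplasmic reticulum membrane protein named for its interaction with the kinase IKKβ, which releases NF-κB from its inhibitors. The Ikbip gene lies head to head with Apaf1, the apoptosome scaffold that activates caspase 9, and in human cells its homologue has been described as a p53 target. Atp7a encodes a copper-pumping ATPase that loads copper onto enzymes in the secretory pathway and exports the excess from the cell. Loss of ATP7A causes Menkes disease in humans, and in mice Atp7a is the X-linked mottled locus.

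The sequences before the starts of Pclaf and Ikbip are shown because a probe-set that moves alone within a gene can be set against what precedes the gene as a whole. They are the 250 bases before the start, from RefSeq on GRCm38.p6, plus strand. The motifs searched on both strands, over these bases and the 50 after the start, were the CCAAT box (CCAAT), an E2F core (GCGGGAA), an E-box (CACGTG) and a GC box (GGGCGG). Capitals mark the bases of each match that lie before the start. A match is a description of the letters and no evidence of binding.
Pclaf promoter, chr9:65890073-65890322: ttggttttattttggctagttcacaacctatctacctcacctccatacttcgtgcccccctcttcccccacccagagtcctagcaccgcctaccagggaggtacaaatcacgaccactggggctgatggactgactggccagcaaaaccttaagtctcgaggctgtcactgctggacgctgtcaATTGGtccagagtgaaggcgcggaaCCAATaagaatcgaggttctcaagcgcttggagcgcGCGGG
Ikbip promoter, chr10:91082789-91083038: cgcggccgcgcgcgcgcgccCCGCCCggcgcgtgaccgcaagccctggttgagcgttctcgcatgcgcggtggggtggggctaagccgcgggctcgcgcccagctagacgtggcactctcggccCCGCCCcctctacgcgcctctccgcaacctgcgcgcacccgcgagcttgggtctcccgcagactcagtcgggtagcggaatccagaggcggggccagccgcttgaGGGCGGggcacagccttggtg

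The Pclaf window held 2 CCAAT boxes, at 66 and 41 bases before the start, and 2 E2F cores, of which 1 runs across the start and 1 lies after it. Of 32851 mouse windows of the same length, 37.4% held a CCAAT box and 4.6% an E2F core. The Ikbip window held 3 GC boxes and none of the other motifs, and 35.7% of all windows held a GC box. The start of Apaf1 lies on the other strand, 296 bases from that of Ikbip, so that the 2 genes point away from a shared stretch. The Atp7a window, on the X chromosome, held 1 E-box, a motif found in 7.2% of windows, and 1 GC box.

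Pclaf gave the widest split. Probe-set 1419152_at read 4.39, 4.30 and 4.52 in null P3, 8.20, 8.12 and 8.17 in P5, and 9.13, 9.13 and 9.03 in P3. All 3 null arrays were close to the floor, and the wild type arrays at both passages were far above it, with no overlap between any of the groups. Means were 4.40 ± 0.11 in null P3, 8.16 ± 0.04 in P5 and 9.10 ± 0.06 in P3 (SD, n = 3 each), and null P3 differed from P3 by -4.69 (SE 0.06), a 25.8-fold lower signal.

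The second Pclaf probe-set, 1419153_at, is annotated to the same cDNA, AK017673. It read 12.04, 11.89 and 11.84 in null P3, 11.67, 11.61 and 11.64 in P5, and 12.39, 12.13 and 12.47 in P3. Here the null arrays lay between the wild type passages, again without overlap. Null P3 differed from P3 by -0.41 (SE 0.10), a 1.32-fold lower signal, and from P5 by 0.28, whereas 1419152_at was 3.76 lower in null P3 than in P5. By this probe-set Pclaf RNA was well above the floor in all null cultures. The third probe-set, 1431273_at (BB647853), stayed below 4 on all 9 arrays, with a highest value of 2.37, and gave no measurement.

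With passage in the wild type the bright Pclaf probe-sets moved together. Both fell in P5, 1419152_at by 0.94 (SE 0.06, limma adjusted p = 0.000719) and 1419153_at by 0.69 (SE 0.10, adjusted p = 0.00885), or 1.91-fold and 1.61-fold. They were the 2 of 8 probe-sets that fell between P5 and P3. Among all probe-sets, those near the floor included, 4.33% fell. Both calls held in all 16 alternative settings. Within the 6 wild type arrays the 2 probe-sets correlated with r = 0.94, and over all 9 arrays with r = 0.27. These correlations describe arrays that share 2 or 3 groups, and carry no test.

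**Figure D1:**
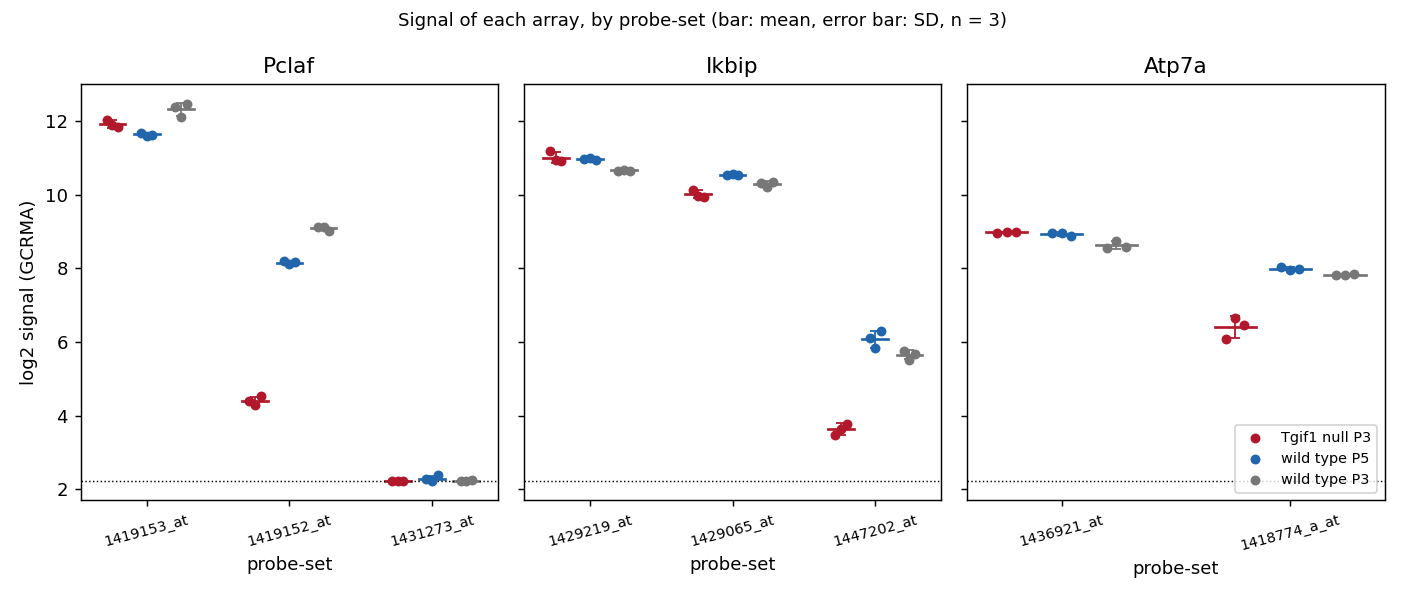
Log2 GCRMA signal (vertical axis) of the 8 probe-sets of Pclaf, Ikbip and Atp7a on each array, by group: null P3, P5 and P3. Points are arrays, bars are means with the SD (n = 3), and the dotted line is the floor; Pclaf 1419152_at averaged 4.40 in null P3, against 8.16 in P5 and 9.10 in P3, while 1419153_at averaged 11.92 in null P3, against 11.64 in P5 and 12.33 in P3.

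Ikbip showed 3 patterns. Probe-set 1447202_at (BE853190) read 3.46, 3.63 and 3.78 in null P3, 6.10, 5.83 and 6.30 in P5, and 5.76, 5.52 and 5.67 in P3. The null arrays were all below 4 and the wild type arrays all above it. Means were 3.63 ± 0.16 in null P3, 6.08 ± 0.23 in P5 and 5.65 ± 0.12 in P3 (SD, n = 3 each), and the measured difference between null P3 and P3 was -2.03 on the log2 scale (SE 0.14). With the null arrays set at 4, the signal was at least 3.14-fold lower in null P3 than in P3. Since this probe-set passed the detection level only through its wild type arrays, its entry among the pairs below depended on the groups in which it was high.

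Probe-set 1429219_at, the brightest of Ikbip, read 11.18, 10.93 and 10.91 in null P3, 10.97, 11.00 and 10.95 in P5, and 10.65, 10.68 and 10.66 in P3. Null P3 was above P3 on every array, by 0.35 (SE 0.07), and overlapped with P5. Probe-set 1429065_at (AK006283) read 10.13, 9.98 and 9.93 in null P3, 10.53, 10.56 and 10.54 in P5, and 10.33, 10.20 and 10.35 in P3. This time the null arrays were below both wild type groups, by 0.28 against P3 (SE 0.06) and by 0.53 against P5. Ikbip signal in the null cells was thus slightly higher, slightly lower or at least 3.14-fold lower than at P3, depending on the probe-set.

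In P5 all 3 Ikbip probe-sets were above P3, without overlap. P5 and P3 did not overlap in 22.1% of all probe-sets and in 50.3% of those above 4 on at least 3 arrays, as these 3 were. Of the Ikbip probe-sets, 1429219_at rose by 0.31 (SE 0.07, limma adjusted p = 0.0477), whereas 1429065_at differed by 0.25 (SE 0.06, adjusted p = 0.0611) and 1447202_at by 0.42 (SE 0.14, adjusted p = 0.154). The call of 1429219_at was close to the threshold, and it was lost in 11 of 16 alternatives, including the omission of any single array other than null P3 replicate 1 (adjusted p from 0.0529 to 0.156). Without null P3 replicate 1, 1429065_at passed as well (adjusted p = 0.0250). Over the 6 wild type arrays 1429219_at correlated with 1429065_at (r = 0.92) and with 1447202_at (r = 0.75), and the last pair with each other (r = 0.82).

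Atp7a had 2 probe-sets, which differed in sign between null P3 and P3. Probe-set 1418774_a_at (U03434) read 6.09, 6.66 and 6.47 in null P3, 8.03, 7.94 and 7.99 in P5, and 7.82, 7.82 and 7.84 in P3. The null arrays were clearly lower and more scattered than the wild type arrays. Their mean was 6.41 ± 0.29, against 7.99 ± 0.04 in P5 and 7.83 ± 0.01 in P3 (SD, n = 3 each), a difference from P3 of -1.42 (SE 0.13) or 2.67-fold.

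Probe-set 1436921_at (BG072708) read 8.97, 8.99 and 8.98 in null P3, 8.97, 8.96 and 8.87 in P5, and 8.56, 8.75 and 8.58 in P3. Null P3 was 0.35 above P3 (SE 0.06) with no overlap, and its arrays overlapped with those of P5. In P5 this probe-set rose by 0.31 (SE 0.06, limma adjusted p = 0.0216), while 1418774_a_at differed by 0.16 (SE 0.13, adjusted p = 0.637), both in the same direction. The call of 1436921_at was lost in 7 of 16 alternatives, among them the omission of P3 replicate 1 or 3 or of P5 replicate 1 or 2 (adjusted p from 0.0704 to 0.0852). Over the 6 wild type arrays the probe-sets correlated with r = 0.87, and over all 9 with r = -0.48.

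Across the 8 probe-sets, 2 rose, 2 fell and 4 did not pass between P5 and P3. Of all probe-sets, those near the floor included, 4.29% rose, 4.33% fell and 8.62% did either. With the limma fit confined to the 18428 above 4 on at least 3 arrays, 6035 passed. The calls are therefore not read as particular to these genes. Signals of P5 and P3 did not overlap in 7 of the 8, the exception being the undetected Pclaf probe-set. The same was true of 22.1% of all probe-sets and of 50.3% of the 18428 above 4 on at least 3 arrays, and the count is not read as particular to these genes. With 3 arrays against 3, an exact permutation test (2-sided) of a single probe-set cannot give a p below 0.1, the value that each of the 7 had.

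**Figure D2:**
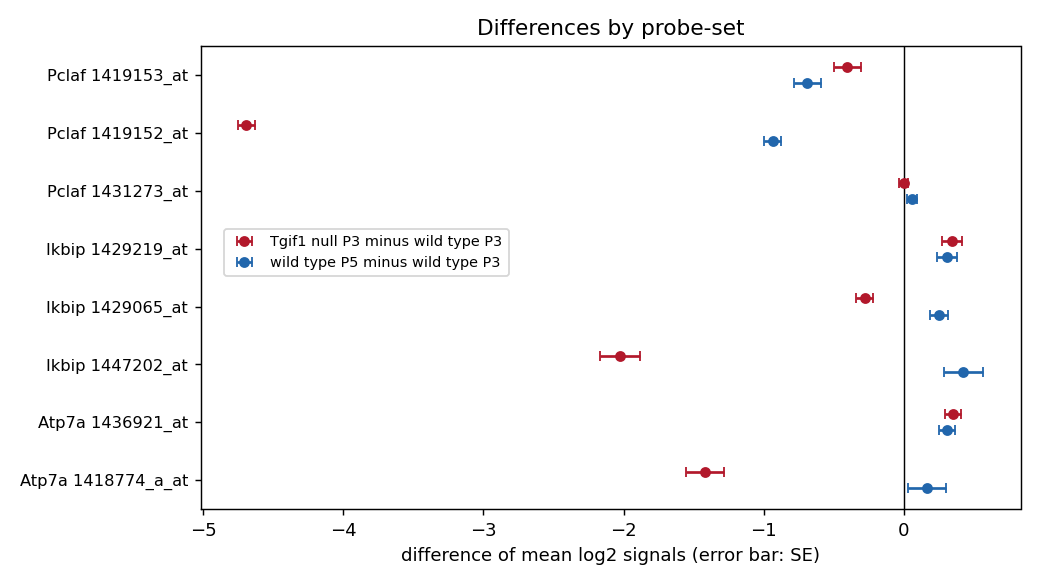
Difference in log2 signal (horizontal axis) for each probe-set of Pclaf, Ikbip and Atp7a, null P3 minus P3 and P5 minus P3, with bars of 1 SE from the fit across all probe-sets. In null P3 minus P3 the detected probe-sets run from -4.69 to -0.41 for Pclaf, from -2.03 to 0.35 for Ikbip and from -1.42 to 0.35 for Atp7a. Pclaf 1431273_at, at 0.00, was below 4 on all arrays and gave no measurement. In P5 minus P3 the detected probe-sets of each gene share a sign.

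Whether probe-sets of a gene change unequally was tested directly on their difference within each array, each probe-set minus the brightest of the same gene. This gave 6752 pairs from 4264 genes with both probe-sets above 4 on at least 3 arrays, and 4 of the pairs belong to Pclaf, Ikbip and Atp7a. For Pclaf, 1419152_at minus 1419153_at was -7.65, -7.59 and -7.32 in null P3, -3.48, -3.49 and -3.47 in P5 and -3.26, -3.00 and -3.44 in P3. The wild type values were close to each other and the null values stood well apart. The gap widened by 4.29 in null P3 against P3, the first of all pairs in size.

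For Ikbip, 1447202_at minus 1429219_at was -7.72, -7.30 and -7.13 in null P3, -4.88, -5.16 and -4.65 in P5 and -4.89, -5.16 and -4.99 in P3. The measured difference between null P3 and P3 was -2.37, the third in size, and with the null signal of 1447202_at set at 4 it was -2.00, the fourth. The second Ikbip pair, 1429065_at minus 1429219_at, averaged -0.99 ± 0.05 in null P3, -0.43 ± 0.02 in P5 and -0.37 ± 0.09 in P3 (SD, n = 3 each), and its difference of -0.62 between null P3 and P3 ranked 130. For Atp7a, 1418774_a_at minus 1436921_at was -2.88, -2.33 and -2.51 in null P3, -0.94, -1.02 and -0.88 in P5 and -0.74, -0.93 and -0.75 in P3. Its difference of -1.77 between null P3 and P3 was the eighth in size. In these 4 pairs the null arrays lay below every wild type array, as they did in 2.71% of all pairs, and nothing is read from this in the comparison that chose the genes.

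The ranks of Pclaf, Ikbip and Atp7a between null P3 and P3 follow from their choice on that comparison, and nothing is read from them. The sizes over all pairs are given as background. The median size of a pair difference between null P3 and P3 was 0.104, and 31 pairs (0.459%) reached 1. The pair test passed 49 of 6752 pairs (0.726%) in that comparison, from which nothing is read for the genes chosen on it. The largest that passed in other genes were in Wdfy1, whose protein binds endosomal phosphoinositide (2.60), Dph5, a diphthamide synthesis enzyme (-2.04), and Zcchc3, a zinc finger gene (-1.94). In Wdfy1 both probe-sets were lower in null P3, the brightest by more (-3.08) than the other (-0.48).

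Between P5 and P3 the gaps in Pclaf, Ikbip and Atp7a were small. None of the 4 pairs passed the limma test and none had an unadjusted p under 0.05, beside 189 of 6752 pairs (2.8%) that passed. The Pclaf pair differed by -0.25 (SE 0.13, 95% interval -0.54 to 0.05, adjusted p = 0.274) and the Atp7a pair by -0.14 (SE 0.14, interval -0.46 to 0.17, adjusted p = 0.546). The Ikbip pairs differed by 0.12 for 1447202_at (SE 0.18, interval -0.29 to 0.52, adjusted p = 0.717) and by -0.06 for 1429065_at (SE 0.08, interval -0.24 to 0.12, adjusted p = 0.683). These intervals leave room for unequal change with passage up to the bounds given. Passage did separate other pairs, the largest that passed being in Mtm1, a phosphoinositide phosphatase (2.49), Timp2, a metalloprotease inhibitor (2.06), Nr4a2, an orphan nuclear receptor (-1.81), Sfrp1, a secreted Wnt antagonist (1.59), and Nudt6 (-1.58).

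**Figure D3:**
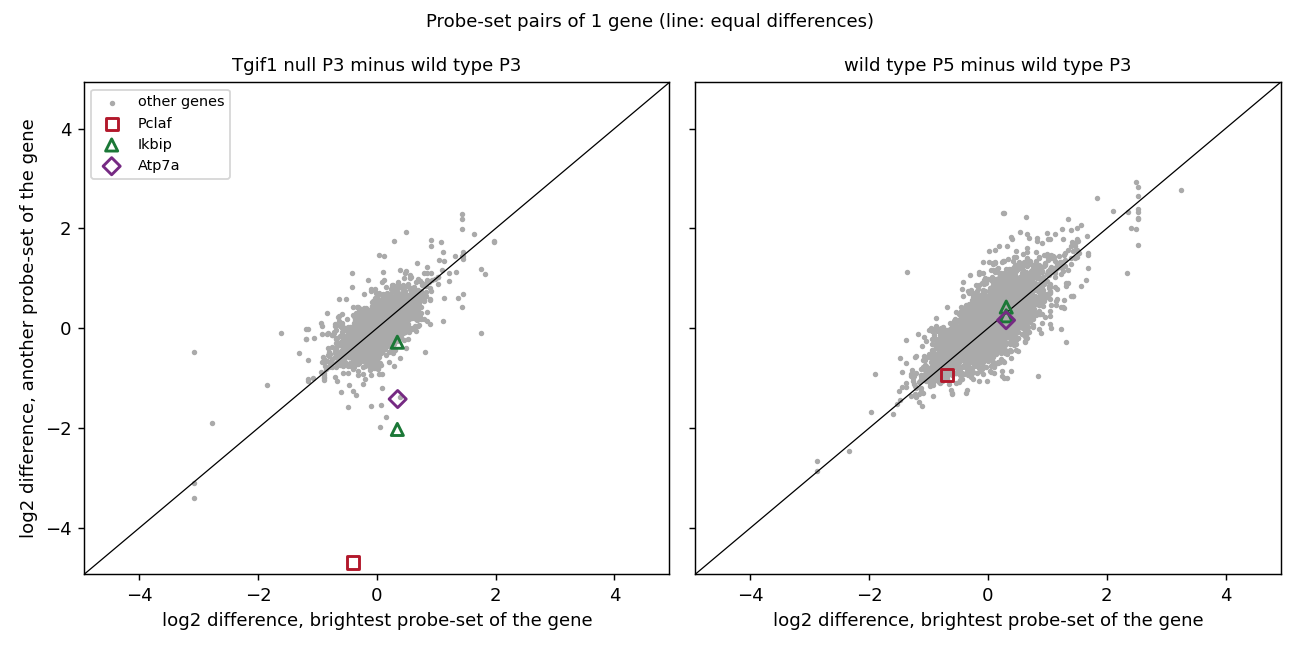
Log2 difference of a probe-set (vertical axis) against that of the brightest probe-set of the same gene (horizontal axis) for all 6752 pairs, null P3 minus P3 on the left and P5 minus P3 on the right. Points on the line changed equally; Pclaf lies at -4.69 against -0.41 on the left and at -0.94 against -0.69 on the right.

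Some genes have probe-sets that pass in opposite directions. Between P5 and P3 there were 8 such genes, none of them Pclaf, Ikbip or Atp7a, and they include Nr4a2, Ptpn2, a tyrosine phosphatase, and Tomm20, an import receptor of the outer mitochondrial membrane.

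Many of the genes whose products work with Pclaf at the clamp fell with passage. All 44 measured partners of the PCNA clamp had a mean signal above 4, as did 9931 of all 18194 genes. Of the 18194, those near the floor included, 7.11% fell and 6.13% rose in P5 against P3. By any probe-set of a gene, 24 partners fell and 1 rose. By the brightest probe-set, 23 of the 44 fell and 0 rose (median -0.57, with 30 falling and 2 rising at an unadjusted limma p under 0.05). They include Uhrf1, which brings the maintenance methyltransferase to hemimethylated DNA (-1.12, adjusted p = 0.000237), the histone chaperone subunit Chaf1b (-1.07), the uracil glycosylase Ung (-0.87), the replicative ligase Lig1 (-1.01) and the exonuclease Exo1 (-1.28). Of 28 measured proliferation genes, 27 had a mean signal above 4. Among the 28, 21 fell and 0 rose (median -0.72), or 22 and 0 by any probe-set of a gene. The decreases include the helicase subunit Mcm5 (-1.16), the replication licensing factor Cdc6 (-1.14) and Ccna2, the S and G2 phase cyclin (-0.95).

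In null P3 against P3, 8 of the 44 clamp partners fell and 1 rose (median -0.30), or 9 and 1 by any probe-set of a gene. Of all genes, those near the floor included, 1.07% fell and 1.51% rose. At an unadjusted limma p under 0.05, 24 partners fell and 5 rose, beside 1378 and 1395 of all 18194 genes. Uhrf1 fell by 0.58 (adjusted p = 0.00707), Ung by 0.47, Lig1 by 0.53, Chaf1b by 0.42 and Exo1 by 0.66. Of the proliferation genes 2 fell, Mcm5 by 0.55 (adjusted p = 0.00821) and Aurkb, a mitotic kinase, by 0.63 (adjusted p = 0.0237), and 0 rose (median -0.32). At an unadjusted p under 0.05, 14 of the 28 fell and 0 rose. In this comparison Pclaf 1419153_at differed by -0.41 and 1419152_at by -4.69. Pclaf was chosen for this gap, and each listed gene was read by its brightest probe-set, so -4.69 is not set against them. The count of 8 was sensitive to the arrays used, with 3 after omission of null P3 replicate 2 or 3, 2 without P3 replicate 1, 4 without P3 replicate 3 and 5 without any one P5 array. The same holds for the proliferation genes, of which 1 fell without null P3 replicate 2 or 3, any one P3 array or P5 replicate 1.

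For the pathway that gives Ikbip its name, 29 NF-κB and IKK genes were measured. In null P3 against P3, 0 rose and 0 fell by the limma test on the brightest probe-set (median 0.00). When any probe-set of a gene was counted, 1 rose and 0 fell. At an unadjusted p under 0.05, 4 rose and 1 fell by the brightest probe-set. Tnfaip3, a deubiquitinase that restrains NF-κB, had a difference of 0.64. In P5 against P3, 3 rose and 2 fell (median -0.07). The inhibitor Nfkbia rose by 0.56 (adjusted p = 0.00424), the IKK scaffold subunit Ikbkg by 0.60 (adjusted p = 0.00622) and the kinase Ikbke by 0.63 (adjusted p = 0.00978), while the signalling adaptor Traf2 fell by 0.40 and Tnfaip3 by 0.68. Both decreases were lost without P3 replicate 1 or 3 or without P5 replicate 1 or 2, and 1 was left without null P3 replicate 2.

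Apaf1, the neighbour of Ikbip, read 8.76, 8.84 and 8.99 in null P3, 8.96, 8.99 and 8.99 in P5 and 8.86, 9.30 and 9.05 in P3. Its groups overlapped, and it differed by -0.21 in null P3 against P3 (adjusted p = 0.754) and by -0.09 in P5 against P3 (adjusted p = 0.909). Among 11 measured genes of intrinsic apoptosis, 0 rose and 0 fell in null P3 by the limma test (median -0.08; 2 rose and 2 fell at an unadjusted p under 0.05). In P5, Pmaip1, the BH3-only protein Noxa, rose by 0.70 (adjusted p = 0.0238) and Cycs, cytochrome c, fell by 0.28 (adjusted p = 0.0120), with a list median of -0.09. The increase of Pmaip1 was lost without P3 replicate 1 or 3 or without any one P5 array, and the decrease of Cycs without P5 replicate 2.

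Around Atp7a, 22 copper handling genes were measured, 18 of them with a mean signal above 4. In null P3 against P3, 0 rose and 0 fell by the limma test (median 0.01), and 2 rose without P3 replicate 2. At an unadjusted p under 0.05, 4 rose and 2 fell. Slc31a2, a copper transporter, had a difference of 0.52 (adjusted p = 0.0662). In P5, 2 rose and 0 fell (median 0.05), or 3 and 0 by any probe-set of a gene. The 2 were the copper-binding prion protein gene Prnp, by 0.95 (adjusted p = 0.00374), and App, the amyloid precursor, by 0.79 (adjusted p = 0.0172). Of these 2, 1 was left without P3 replicate 1 or 3 or P5 replicate 1 or 2.

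Enzymes that receive copper in the secretory pathway or the cytosol were represented by 15 genes. Only 8 of them had a mean signal above 4, so the medians and counts include genes near the floor. In null P3, 1 fell and 0 rose (median 0.00). It was Pam, the peptide amidating monooxygenase, which fell by 0.96 (adjusted p = 0.0198) in null P3 but rose by 0.78 (adjusted p = 0.0114) in P5. The decrease was lost without null P3 replicate 3, P3 replicate 1 or 3, or P5 replicate 1. In P5, 4 rose and 1 fell (median 0.06), or 5 and 1 by any probe-set of a gene. Increases included the lysyl oxidases Loxl3 (0.93), Lox (0.95) and Loxl4 (0.61), which cross-link collagen and elastin. A decrease of 0.79 in Moxd1, a monooxygenase-like gene, was lost without P3 replicate 1 or 3 or P5 replicate 1 or 2.

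The genes that flank each of the 3 on the chromosome were compared next, the 10 nearest measured genes on each side. Of the 20 around each gene, 15 had a mean signal above 4 for Pclaf, 13 for Ikbip and 13 for Atp7a. The rest were near the floor and could show little difference, so the counts and medians include genes without clear signal. Around Pclaf, on chromosome 9, 0 of 20 rose or fell in null P3 against P3 (median -0.03), and their differences ran from -0.55 to 0.34. Its nearest neighbours Trip4, a transcriptional coactivator, and Csnk1g1, a casein kinase, differed by -0.12 and -0.01. Around Ikbip, on chromosome 10, 1 of 20 fell, Gas2l3, a cytoskeletal linker (-0.61, adjusted p = 0.0383), with a median of -0.13, and Slc25a3, the mitochondrial phosphate carrier on the side away from Apaf1, differed by 0.00.

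Around Atp7a, on the X chromosome, 1 of 20 rose, Magee1 (0.35, adjusted p = 0.0164), with a median of 0.00. Magt1, a magnesium transporter and the nearest gene on one side, differed by 0.07, and Tlr13 on the other side was at the floor on all arrays. In P5 against P3, 1 neighbour rose and 2 fell around Pclaf, 0 rose and 4 fell around Ikbip, and 2 rose and 3 fell around Atp7a. Each neighbour was read by its brightest probe-set. In null P3 against P3 the brightest probe-sets of Pclaf, Ikbip and Atp7a differed by -0.41, 0.35 and 0.35. The values -4.69, -2.03 and -1.42 come from dimmer probe-sets of genes chosen on this comparison, so they are not set against the neighbours. A difference shared along the chromosome was not tested.

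**Figure D4:**
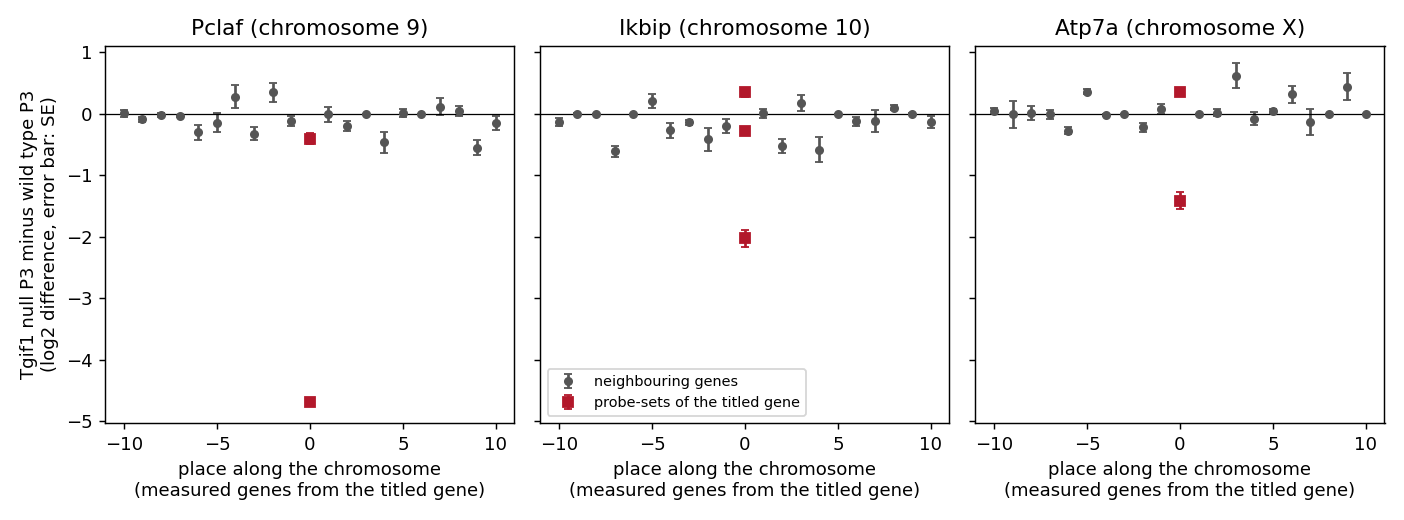
Difference in log2 signal between null P3 and P3 (vertical axis) for the 10 nearest measured genes on each side of Pclaf, Ikbip and Atp7a, by their order along the chromosome (horizontal axis), with the probe-sets of the titled gene at place 0. Each neighbour is read by its brightest probe-set, and neighbours near the floor are included. Neighbours of Pclaf lie between -0.55 and 0.34, the brightest Pclaf probe-set at -0.41 and its other detected probe-set at -4.69. Bars are 1 SE.

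Probe-sets of other genes with the most similar profile over the 9 arrays were sought for the 3 low probe-sets, among 4145 with a range of at least 1. For Pclaf 1419152_at they were Ywhaz 1448218_s_at (r = 0.99, difference between null P3 and P3 -0.92), Ano1 1459713_s_at (r = 0.99, -1.31) and Rps6 1416142_at (r = 0.98, -0.91). For Ikbip 1447202_at they were Wdfy1 1437358_at (r = 0.99, -3.08), Ntn4 1439794_at (r = 0.99, -3.16) and Tgif1 (r = 0.98, -7.10). For Atp7a 1418774_a_at they were Tgif1 (r = 0.99), Wdfy1 1437358_at (r = 0.99) and Scara3 1427020_at (r = 0.98, -0.79). All of these had their lowest mean in null P3, and the 9 arrays share 3 groups. Wdfy1 1437358_at belongs to a split gene itself. It is the brightest probe-set of Wdfy1 and had the larger decrease, while its dimmer companion 1453426_a_at differed by -0.48.

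The cultures were fibroblast by their markers, with all 10 fibroblast genes above 4 in each group and mean levels of 12.73 to 13.01 in null P3, 13.14 to 13.24 in P5 and 12.86 to 12.90 in P3. Of 10 macrophage genes, 7 were above 4 in null P3, 5 in P5 and 5 in P3, with mean levels of 4.62 to 5.31 in null P3, 3.80 to 3.87 in P5 and 3.96 to 4.12 in P3. Of 5 skeletal muscle genes, 5 were above 4 in null P3, 0 in P5 and 3 in P3, with mean levels of 7.31 to 8.06 in null P3, 3.10 to 3.26 in P5 and 5.01 to 5.11 in P3. Of 5 endothelial genes 1 was above 4 in each group, and of 5 epithelial genes 2. The null P3 arrays were thus the highest in macrophage and muscle genes, and the part of these in the values above was not tested.

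Because Atp7a is X-linked, the genes that mark the sex of the embryos were read as well. Xist, the RNA of the inactive X, read 11.17, 10.92 and 10.85 in null P3, 9.62, 9.50 and 10.38 in P5, and 10.55, 10.51 and 10.90 in P3. The Y-linked Eif2s3y read 7.86, 8.64 and 8.81 in null P3, 9.38, 9.31 and 9.35 in P5, and 8.58, 9.12 and 8.29 in P3, so that every culture held male and female signal. In P5 against P3 Xist was lower and Eif2s3y higher, each without overlap. The same lack of overlap was seen in 50.3% of probe-sets above 4 on at least 3 arrays. Neither gene passed the test between null P3 and P3 (Xist 0.33, adjusted p = 0.768; Eif2s3y -0.22, adjusted p = 1), and their part in the Atp7a values was not tested.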

How the data were processed

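The authors analysed RNA on Affymetrix MOE430_2.0 arrays and deposited log2 signal values made with the Bioconductor GCRMA algorithm, which were used as deposited. Of 45101 probe-sets, 34958 carried 1 gene symbol in the platform annotation, 932 several and 9211 none, giving 18194 genes, each read by its probe-set with the highest mean. A linear model of 3 group means was fitted to all probe-sets with limma 3.58.1 in R 4.3.3 (eBayes defaults), with Benjamini-Hochberg adjustment over all probe-sets and a threshold of 0.05. Pairs of probe-sets were tested in the same way on their difference within each array. The fits were tried on simulated data with independent noise and shifts in bright probe-sets only, so the trial does not cover signals near the floor. The number of arrays limits the precision.

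Genes and lists were chosen with earlier results of these data known. Text names were set by rule: all probe-sets of Pclaf, Ikbip and Atp7a, up to 5 genes of each list with the smallest p in each comparison, the nearest neighbours, the 3 most similar profiles and the 5 largest pairs that passed. Gas2l3, Magee1, Ptpn2 and Tomm20 were added after their values were seen, as was the bound that sets the null signal of Ikbip 1447202_at at 4. Alternatives covered low-signal filters, the variance prior, centring, quantile normalization, a replicate block, 2-group fits, the choice of pairs and omission of each array. Promoter sequences, gene order and names came from RefSeq, matched by symbol for all 3 genes; the probe sequences were not used here, so the stretch that each probe-set reads is not stated.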

Additional observations from a re-analysis of the deposited data

How the results depend on the processing

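The decreases of Pclaf 1419152_at and 1419153_at in P5 against P3 kept direction and call in all 16 alternatives, with adjusted p from 5.61e-05 to 0.0151 and from 0.000985 to 0.0420. The null P3 to P3 differences kept their sign, at -4.75 to -4.64 for Pclaf 1419152_at, -2.10 to -1.94 for Ikbip 1447202_at and -1.54 to -1.26 for Atp7a 1418774_a_at. Filters at 4 and 6 removed Pclaf 1431273_at, and the filter at 6 also Ikbip 1447202_at, so these gave no value there. Calls close to the threshold did not hold. Ikbip 1429219_at in P5 against P3 was 0.31 (adjusted p = 0.195) with a trended robust prior, 0.29 (adjusted p = 0.0664) after quantile normalization and 0.31 (adjusted p = 0.107) with a replicate block, and ranged from 0.296 to 0.322 without 1 array. Atp7a 1436921_at was 0.31 with the trended robust prior (adjusted p = 0.217), with the replicate block (adjusted p = 0.05002) and in the 2-group fit (adjusted p = 0.0877), and ranged from 0.269 to 0.367 without 1 array. Some passed only under an alternative: Ikbip 1429065_at at 0.25 with the filter at 4 (adjusted p = 0.0343) or 6 (adjusted p = 0.0306) and at 0.26 with median centring (adjusted p = 0.0383), ranging from 0.203 to 0.277 without 1 array; Ikbip 1447202_at at 0.42 with the filter at 4 (adjusted p = 0.0407); and Atp7a 1418774_a_at at 0.16 in the 2-group fit (adjusted p = 0.0358). The cause was not tested, except that filters reduce the number of probe-sets tested.

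Replicate numbers were not taken to pair the samples, and the labels do not say whether they do. Same-numbered arrays had residual correlations from -0.488 to 0.393, and 2 of 9 lay closest to their own number. Between P3 and P5 the same-numbered values were -0.053, 0.157 and 0.139. With so few arrays in a group these values cannot exclude a pairing. The probe-sets called between P5 and P3 numbered 3889, against 6035 with the filter at 4, 1297 with the trended robust prior, 2247 with the replicate block and 2076 to 4161 without 1 array. The pairs called between P5 and P3 numbered 189, against 65 with the replicate block, 1730 with no filter and 13 to 851 without 1 array. Between null P3 and P3 they numbered 49, against 30 with the filter at 6, 24 with the replicate block, 15 in the 2-group fit, 357 with no filter and 19 to 51 without 1 array. The Ikbip 1447202_at pair between P5 and P3 turned to -0.00929 without P5 replicate 3, the lowest of a range that reached 0.249. Of 408 recounts of the gene lists, 305 stayed within 1.5 times and 103 did not.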
